A study of Oryza sativa Indica Group with 11 samples.

Results

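The genes described here are the redox enzymes of rice other than ascorbate peroxidases, measured in the crown and growing point of a salt-sensitive and a salt-tolerant rice. They were chosen by their symbols in the annotation of the array, which had to begin like the symbols of superoxide dismutases, catalases, glutathione S-transferases, glutathione peroxidases, glutaredoxins, thioredoxins, peroxiredoxins, dehydroascorbate or monodehydroascorbate reductases, glutathione reductases, alternative oxidases or NADPH oxidases. The rule used no measured difference between groups. It found 55 of the 17905 genes that had a probe set naming exactly 1 gene. They are 18 glutaredoxins, 14 thioredoxins, 6 glutathione S-transferases, 4 superoxide dismutases, 4 peroxiredoxins, 2 catalases, 2 monodehydroascorbate reductases, 2 class III peroxidases, 1 alternative oxidase, 1 NADPH oxidase and TRX1. The symbol of TRX1 met the rule for thioredoxins, but it is known as a trithorax-type histone methyltransferase, and it is kept in the counts as a subgroup of its own. The class III peroxidases PRX74 and PRX112 share a symbol form with the peroxiredoxins and belong to another enzyme family. No glutathione peroxidase, dehydroascorbate reductase or glutathione reductase met the rule.

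The 11 arrays formed 4 groups. IR29 under salt had 3 arrays and IR29 without salt had 2 arrays, while FL478 under salt and FL478 without salt had 3 arrays each. IR29 is a salt-sensitive indica cultivar. FL478, a recombinant inbred line that tolerates salt, was bred from IR29 and the landrace Pokkali, so both lines share part of their genome and each stands for 1 genotype. Each array held RNA pooled from about 12 dissected plants. How much salt was given, for how long and to plants of which age is not given in the sources used here. Arrays of a group are numbered as replicates in their labels, and p-values set a difference against the spread between such arrays.

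Reactive oxygen species arise in plants from electron transport and from NADPH oxidases at the plasma membrane. Superoxide dismutases turn superoxide into hydrogen peroxide, which catalases, ascorbate peroxidases and peroxiredoxins remove. Monodehydroascorbate reductases restore ascorbate. Thioredoxins and glutaredoxins reduce disulfides in target proteins, with electrons from ferredoxin or NADPH and from glutathione. Glutathione S-transferases join glutathione to other molecules. Salt stress is known to raise the load of reactive oxygen in plant tissue.

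Levels are given as log2 of the quantile-normalised intensity plus 16, a scale on which a difference of 1 is a doubling, and they are compared between arrays for 1 probe set at a time. A difference was called when its limma p-value was under 0.05 after Benjamini-Hochberg adjustment across the 57258 probe sets of the array. Array values are listed in the order of the replicate numbers. Of the 55 genes, 53 had a mean level of at least 6, against 29266 of the 57258 probe sets of the array. Shares of all probe sets given below thus include many dimmer ones. The array marks the probe sets of 6 members (GRXC3, GRXS10, GRXS2, GSTU1, OsTrxh4-2 and sodA) and of 3 more (GSTZ3, OsTrxm5 and catA) as ones that may also bind other, similar transcripts. The genes below a mean of 6, GRXS3 and OsTrxh5, lay near the pseudocount, where differences are compressed. The spread within groups was a median SD of 0.23 over the redox genes, with a range of 0.08 to 1.17, against 0.27 over all probe sets with a mean level of at least 6.

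On the first principal component of all probe sets the lines fell apart. The 5 IR29 arrays lay at 31.48 to 74.95 and the 6 FL478 arrays at -62.57 to -22.26. IR29 control replicate 1 stood nearest to FL478, at 31.48, with the other IR29 arrays at 55.24 or above. Among the 992 probe sets called between the lines in salt plants, it lay nearer to the FL478 mean for 317 (32%), against 168 (16.9%) for IR29 control replicate 2. FL478 salt replicate 2 stood nearest to IR29, at -22.26. Control probe sets of the array compare the 3' and 5' ends of a transcript. On FL478 salt replicate 2 their 3' minus 5' log2 difference was the largest for cyclophilin (1.22, others 0.41 to 1.15) and actin (1.03, others 0.48 to 0.90). For GAPDH it was 0.52, with the others at 0.28 to 0.65. Its part in the results was not tested. Calls that change when either of these arrays is left out are given below without it, as are the values of several other genes. The 5 growing point markers (KNOX genes), at a mean of 9.54 to 10.19 on all arrays, were measured in every group. The 3 root markers had means of 6.53 to 7.98 and the 2 leaf markers means of 13.15 to 14.06, so leaf transcripts were part of the tissue. The 5 xylem markers averaged 10.51 to 10.77 in IR29 salt plants and 9.78 to 9.81 in IR29 control plants, and 10.29 to 10.50 in FL478 salt plants and 10.13 to 10.23 in FL478 control plants. The 11 markers of dividing cells averaged 10.91 to 11.26 in IR29 salt plants and 11.34 to 11.58 in IR29 control plants, and 11.19 to 11.38 in FL478 salt plants and 11.31 to 11.52 in FL478 control plants. Their part in the results below was not tested. In such pooled tissue, fewer cells of a type and less RNA per cell cannot be told apart.

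Salt changed none of the 55 redox genes past the threshold in either line. In FL478, 0 of 55 were called by limma, where 0.00873% of all probe sets were called, and 6 of 55 (10.9%) had an unadjusted p under 0.05, against 5.41% of all probe sets. Of these 6, 4 were higher with salt (2.81% of all probe sets) and 2 lower (2.61%). Over the alternatives the count of 6 ran from 2 to 12. In IR29, 0 of 55 were called, where 0.00524% of all probe sets were called, and 6 of 55 (10.9%) had an unadjusted p under 0.05, against 7.37% of all probe sets. Again 4 were higher with salt (3.6% of all probe sets) and 2 lower (3.77%), and the count ran from 0 to 8 over the alternatives. The smallest adjusted p among the redox genes was 0.887 in FL478 and 0.568 in IR29. The median difference between salt and control was -0.01 in FL478 and 0.00 in IR29, and 25 and 27 of the 55 genes lay above 0, against 50.6% and 48.7% of all probe sets. With 2 or 3 arrays per group, small changes can be missed.

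The heat map of the redox genes shows each of them on each array.

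**Figure D1:**
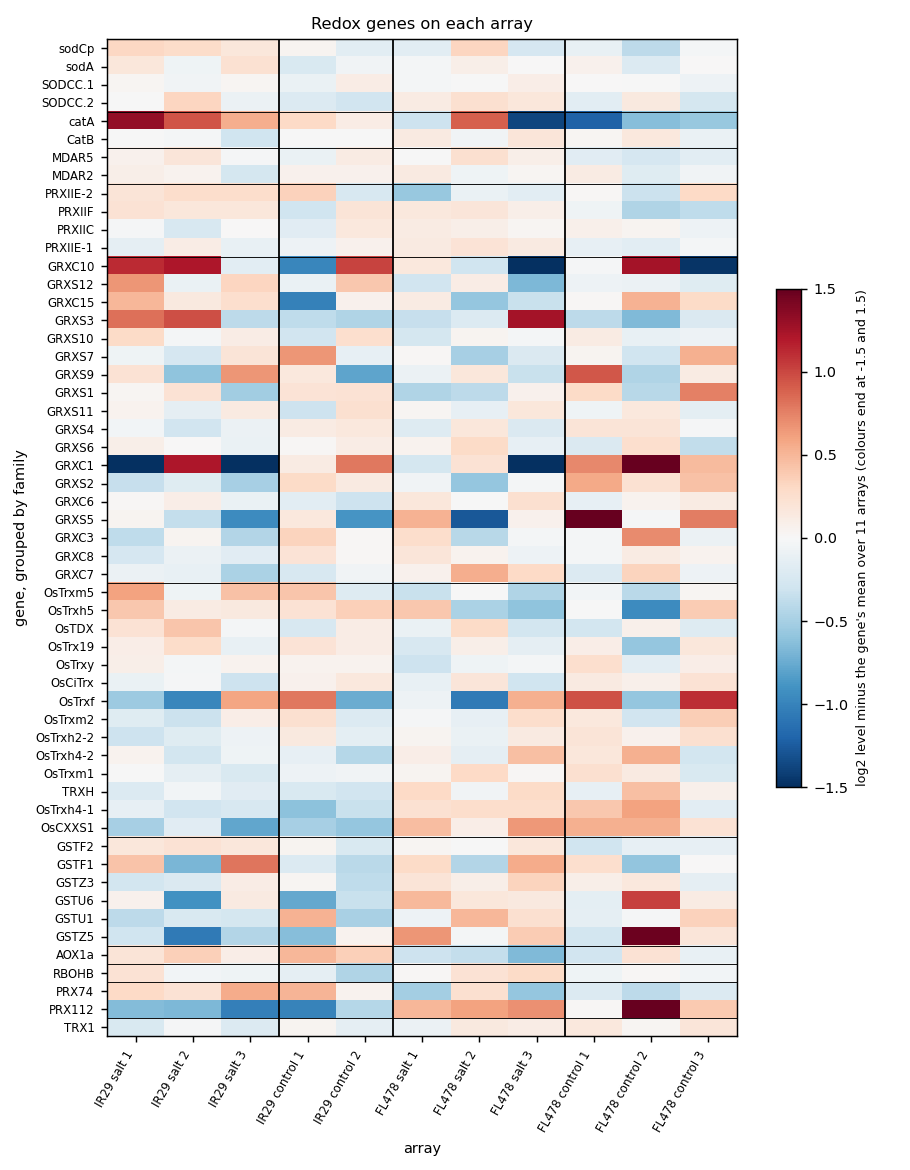
Level of each of the 55 redox genes on each array, as the log2 level minus the mean of that gene over the 11 arrays; rows are genes grouped by family, columns are arrays with IR29 left of FL478 and salt left of control, and colours end at -1.5 and 1.5. Most cells are pale, and the strong colours include single arrays of GRXC1, GRXC10, GRXS3, GRXS5, GSTZ5 and OsTrxf and the line differences of catA, OsCXXS1 and PRX112.

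Among the producers and first removers of reactive oxygen, the differences with salt were small. RBOHB, a plasma membrane NADPH oxidase that makes superoxide outside the cell, had levels of 12.38, 12.12 and 12.10 in IR29 salt plants, against 12.03 and 11.71 in IR29 control plants. Its levels were 12.18, 12.38 and 12.45 in FL478 salt plants, against 12.10, 12.18 and 12.12 in FL478 control plants. In both lines the lowest salt array lay at or just above the highest control array, with differences of 0.33 ± 0.13 (SE) in IR29 and 0.20 ± 0.12 in FL478 (limma adjusted p = 0.608 and 0.941). The IR29 difference of RBOHB was 0.49 without IR29 control replicate 1 and 0.17 without IR29 control replicate 2. Centring each array on its median gave RBOHB differences of 0.45 in IR29 and 0.03 in FL478.

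The 4 superoxide dismutases lay above 0 in FL478, and 3 of 4 in IR29, with differences of 0.05 to 0.27 and of -0.00 to 0.32, and none was called. With each array centred on its median in place of quantile normalisation, 1 of 4 lay above 0 in FL478 and 4 of 4 in IR29. The next brightest probe set of sodA went the other way, with lower means under salt in both lines. It had 9.06, 9.17 and 9.57 in IR29 salt plants, against 9.54 and 9.39 in IR29 control plants. In FL478 it had 9.27, 9.26 and 9.65 in salt plants, against 9.66, 9.40 and 9.69 in control plants. SODCC.2, a cytosolic copper/zinc enzyme, had levels of 13.23, 13.55 and 13.14 in IR29 salt plants, against 13.03 and 12.95 in IR29 control plants, a difference of 0.32 ± 0.15 (adjusted p = 0.678). In FL478 it had 13.36, 13.47 and 13.40 in salt plants, against 13.07, 13.38 and 12.97 in control plants, a difference of 0.27 ± 0.13 (adjusted p = 0.922). The salt arrays of SODCC.2 lay above the control arrays in IR29 and overlapped them in FL478. SODCC.1, the other cytosolic copper/zinc enzyme, was among the steadiest genes, with levels of 14.21 to 14.42 on all arrays.

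The peroxisomal catalases differed from each other in spread. CatB had differences of -0.11 ± 0.13 in IR29 and 0.06 ± 0.12 in FL478. catA had levels of 14.07, 13.70 and 13.30 in IR29 salt plants, against 13.05 and 12.87 in IR29 control plants, so every salt array was above both controls. In FL478 it had 12.44, 13.65 and 11.38 in salt plants, against 11.54, 12.12 and 12.19 in control plants, so the salt arrays ran from below to above all controls. The differences of catA were 0.73 ± 0.48 in IR29 (adjusted p = 0.79) and 0.54 ± 0.43 in FL478 (adjusted p = 0.957). The FL478 value of catA was -0.04 without FL478 salt replicate 2, 1.09 without FL478 salt replicate 3 and 0.33 without FL478 control replicate 1.

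MDAR5, a monodehydroascorbate reductase, had levels of 11.66, 11.90 and 11.75 in FL478 salt plants, against 11.49, 11.41 and 11.51 in FL478 control plants. The groups did not overlap, and the difference was 0.30 ± 0.11 (adjusted p = 0.905). In IR29 MDAR5 had 11.73, 11.85 and 11.65 in salt plants, against 11.56 and 11.79 in control plants, which overlapped, with a difference of 0.07 ± 0.12. Median centring gave MDAR5 differences of 0.15 in FL478 and 0.20 in IR29. MDAR2 had differences of -0.10 ± 0.15 in IR29 and 0.07 ± 0.13 in FL478.

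The 4 peroxiredoxins, thiol enzymes that reduce peroxides, included the FL478 response with the smallest p-value among the redox genes. PRXIIF, whose Arabidopsis counterpart works in mitochondria, had levels of 10.96, 10.98 and 10.88 in FL478 salt plants, against 10.73, 10.35 and 10.42 in FL478 control plants. All salt arrays lay above all controls, and the difference was 0.44 ± 0.14 (unadjusted p = 0.00861, adjusted p = 0.887). In IR29 PRXIIF had 11.01, 10.97 and 10.97 in salt plants, against 10.50 and 10.99 in control plants, where replicate 1 alone lay low. Its IR29 difference of 0.24 ± 0.16 was -0.01 without IR29 control replicate 1 and 0.49 without IR29 control replicate 2. PRXIIE-1 had 12.47, 12.54 and 12.47 in FL478 salt plants, against 12.21, 12.18 and 12.31 in FL478 control plants, again without overlap, with a difference of 0.26 ± 0.10 (adjusted p = 0.905) and of -0.04 ± 0.11 in IR29. PRXIIE-2 and PRXIIC had differences of -0.28 ± 0.19 and 0.06 ± 0.11 in FL478, and of 0.19 ± 0.21 and -0.08 ± 0.13 in IR29.

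Glutaredoxins held the widest differences with salt and the widest spread. In FL478, 12 of the 18 lay below 0, with a median of -0.23, and in IR29 10 of 18, with a median of -0.06, and none was called. With median centring the medians were -0.34 in FL478 and 0.15 in IR29, so the sign in IR29 turned. GRXS2 had levels of 7.76, 7.93 and 7.61 in IR29 salt plants, against 8.40 and 8.24 in IR29 control plants. It had 8.06, 7.53 and 8.08 in FL478 salt plants, against 8.68, 8.34 and 8.55 in FL478 control plants. In each line the salt arrays of GRXS2 all lay below the controls, with differences of -0.56 ± 0.23 in IR29 and -0.64 ± 0.21 in FL478 (adjusted p = 0.621 and 0.894), and over all alternatives these ran from -0.64 to -0.36 and from -0.73 to -0.46. Together with GSTF2 it was 1 of 2 redox genes with an unadjusted p under 0.05 in both lines with quantile normalisation.

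GRXC1 had the widest FL478 difference of the set, -1.69 ± 0.74 (adjusted p = 0.91). Its levels were 9.19, 9.67 and 7.61 in FL478 salt plants, against 10.17, 11.43 and 9.93 in FL478 control plants, without overlap but with a spread of more than 1 within each group, and the difference was -1.08 without FL478 salt replicate 3. In IR29 GRXC1 had 7.90, 10.66 and 7.61 in salt plants, against 9.57 and 10.24 in control plants, where salt replicate 2 was the highest array. Within each group of both lines, replicate 2 was the highest array of GRXC1. GRXC8 had 12.39, 12.55 and 12.47 in IR29 salt plants, against 12.85 and 12.66 in IR29 control plants, all below the controls, with a difference of -0.29 ± 0.12 (adjusted p = 0.61) and of 0.00 ± 0.10 in FL478. Median centring gave GRXC8 a difference of -0.17 in IR29 and of -0.17 in FL478. GRXS5 ranged over 6.98 to 10.18 on the 11 arrays, and GRXC10 had SDs of 0.77 to 1.41 within groups, so replicates lay far apart. GRXS3, near the pseudocount, had 5.73, 5.88 and 4.52 in IR29 salt plants, against 4.53 and 4.46 in IR29 control plants.

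GRXC15 was the redox gene for which the responses of the lines lay farthest apart. It had levels of 10.28, 9.93 and 10.03 in IR29 salt plants, against 8.77 and 9.84 in IR29 control plants, and 9.90, 9.20 and 9.45 in FL478 salt plants, against 9.80, 10.30 and 10.07 in FL478 control plants. The IR29 salt arrays lay above both IR29 controls, while the FL478 salt arrays lay below or among the FL478 controls. The difference with salt was 0.77 ± 0.29 in IR29 and -0.54 ± 0.26 in FL478, and the difference between these responses was 1.31 ± 0.39 (unadjusted p = 0.00562, limma adjusted p = 0.853). IR29 control replicate 1 set much of the value for GRXC15: the difference between the responses was 0.77 without it and 1.84 without IR29 control replicate 2. Over all redox genes, 0 of 55 were called for a difference between the responses, where 0% of all probe sets were called, and 1 of 55 (GRXC15) had an unadjusted p under 0.05, against 5.34% of all probe sets (2.69% higher and 2.65% lower). The difference between the responses lay above 0 for 32 of 55, against 48.4% of all probe sets, with a median of 0.06.

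The thioredoxins differed little with salt: 8 of 14 lay below 0 in IR29 and 11 of 14 in FL478, with medians of -0.04 and -0.03, which median centring turned to 0.10 in IR29 and left below 0 in FL478, at -0.18. OsTDX, a thioredoxin with protein-binding repeats, had the highest difference of the family in both lines, 0.27 ± 0.20 in IR29 and 0.10 ± 0.18 in FL478. OsTrxf, of the plastid f type that activates enzymes of carbon fixation, had the lowest, -0.34 ± 0.63 in IR29 and -0.70 ± 0.56 in FL478. OsTrxf had levels of 10.47, 10.03 and 11.60 in IR29 salt plants, against 11.80 and 10.27 in IR29 control plants, and 10.94, 9.95 and 11.54 in FL478 salt plants, against 11.97, 10.43 and 12.12 in FL478 control plants. In every group of OsTrxf replicate 2 was the lowest array and lay about 1 or more below another, and the groups overlapped in both lines. With 1 array left out the difference of OsTrxf ran from -1.10 to 0.43 in IR29 and from -1.24 to -0.27 in FL478. The trithorax gene TRX1 had differences of -0.10 ± 0.13 in IR29 and -0.06 ± 0.12 in FL478.

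Of the 6 glutathione S-transferases, 4 lay above 0 in each line. GSTF2, of the phi class, had levels of 14.35, 14.40 and 14.35 in IR29 salt plants, against 14.22 and 13.95 in IR29 control plants, and 14.21, 14.18 and 14.35 in FL478 salt plants, against 13.89, 14.06 and 14.06 in FL478 control plants. With quantile normalisation, all salt arrays of GSTF2 lay above all controls of their line. In the values as deposited the groups overlapped in both lines, with differences of 0.22 in IR29 and 0.16 in FL478. Median centring gave 0.36 in IR29 and 0.03 in FL478. The differences of GSTF2 were 0.28 ± 0.12 in IR29 and 0.24 ± 0.11 in FL478 (adjusted p = 0.631 and 0.91), and the IR29 value was 0.41 without IR29 control replicate 1 and 0.15 without IR29 control replicate 2. GSTF1 had 0.49 ± 0.40 and 0.25 ± 0.36, and GSTZ5, of the zeta class, -0.31 ± 0.43 and -0.12 ± 0.38, in IR29 and FL478.

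AOX1a, the mitochondrial alternative oxidase, which passes electrons to oxygen without pumping protons, is known as a gene raised by several stresses. Here it had levels of 7.60, 7.76 and 7.50 in IR29 salt plants, against 7.90 and 7.76 in IR29 control plants, and 7.09, 7.04 and 6.74 in FL478 salt plants, against 7.11, 7.62 and 7.29 in FL478 control plants. No salt array of AOX1a lay above a control array of its line, and the differences were -0.21 ± 0.26 and -0.39 ± 0.23 (adjusted p = 0.92 and 0.941).

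Every salt array lay above every control for 9 redox genes in IR29, where 10.8% of all probe sets did so, and below for 5, against 12.7% of all probe sets. In FL478 the counts were 5 above, against 5.49% of all probe sets, and 3 below, against 4.83%. In both lines together, 15 of the 55 redox genes lay above 0 in each line, 18 below 0 in each line and 22 on opposite sides, where 25.8% of all probe sets lay above 0 in both lines and 26.6% below 0 in both. The plot of the salt responses sets the lines against each other.

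**Figure D2:**
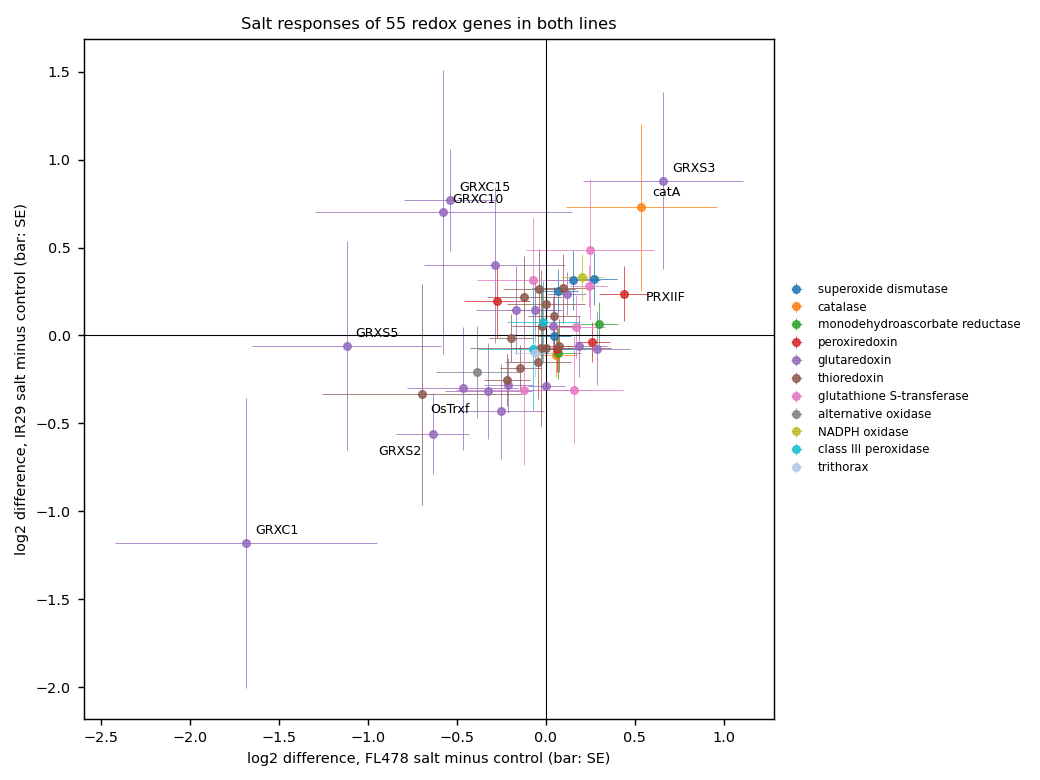
Salt response of the 55 redox genes, as the log2 difference of salt minus control in FL478 (x axis) and in IR29 (y axis), with bars of 1 SE and colours by family. Most genes lie close to 0 in both lines; GRXC1 lies lowest in both, GRXS2 lies below 0 in both, and GRXC15 lies above 0 in IR29 and below 0 in FL478.

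The signs of these small differences depended on the scaling. With each array centred on its median, the median of all probe sets moved to 0.20 for the difference between the responses, against -0.02 with quantile normalisation, and the median of the redox genes to 0.35, against 0.06. The redox genes then had 40 of 55 above 0 in IR29 and 13 of 55 in FL478, against 27 and 25 with quantile normalisation, and still 0 called.

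Between the lines, OsCXXS1 was lower in IR29 than in FL478 with and without salt, and PRX112 was lower in IR29 under salt. These were the only redox genes past the threshold: 2 of 55 in salt plants, where 1.73% of all probe sets were called, and 1 of 55 in control plants, where 0.814% were called. With 1 probe set for each gene, as for the redox genes, the shares were 2.54% in salt plants and 1.09% in control plants. An unadjusted p under 0.05 was found for 11 of 55 (20%) in salt plants, against 11.4% of all probe sets, and for 7 of 55 (12.7%) in control plants, against 8.97%. In salt plants 6 were higher in IR29 (5.86% of all probe sets) and 5 lower (5.59%), and in control plants 1 was higher (4.48%) and 6 lower (4.5%). Over the alternatives the counts ran from 6 to 19 in salt plants and from 5 to 10 in control plants. The median line difference of the redox genes was -0.07 in salt plants and -0.02 in control plants, with 22 and 23 of 55 above 0, against 47.9% and 50.5% of all probe sets. With median centring, 42 of 55 lay above 0 in salt plants and 18 of 55 in control plants, and 0 were called in either. The salt responses and these comparisons share arrays, and so do both line comparisons through the shared estimate of the spread.

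OsCXXS1 (LOC4337091, chromosome 4) encodes a thioredoxin-type protein whose active site, as the name says, has a serine in place of the second cysteine. Its levels were 12.17, 12.49 and 11.89 in IR29 salt plants, against 13.13, 12.77 and 13.32 in FL478 salt plants. They were 12.17 and 12.09 in IR29 control plants, against 13.20, 13.20 and 12.88 in FL478 control plants. Every IR29 array of OsCXXS1 lay below every FL478 array, in both conditions. The difference between IR29 and FL478 was -0.89 ± 0.17 under salt, a ratio of 0.54 (limma adjusted p = 0.0194), and -0.96 ± 0.19 without salt, a ratio of 0.513 (adjusted p = 0.0403). Salt itself left OsCXXS1 at differences of 0.05 ± 0.19 in IR29 and -0.02 ± 0.17 in FL478.

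The size of the OsCXXS1 difference held more firmly than its call. Over 21 alternatives the line difference ran from -1.05 to -0.63 under salt, with adjusted p from 0.00586 to 0.264, and the call was kept in 14 of them. Without salt it ran from -1.07 to -0.91, with adjusted p from 0.0232 to 0.215, and was kept in 10 of 21. The call without salt was lost when either IR29 control array was left out (adjusted p = 0.169 without replicate 1 and 0.215 without replicate 2) and likewise without replicate 1 of either salt group or without FL478 control replicate 1 or 2 (adjusted p = 0.0721 to 0.14). The call under salt was lost without replicate 1 or 3 of either salt group (adjusted p = 0.0868 to 0.103).

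PRX112 (LOC4344279, chromosome 7) encodes a class III peroxidase, of the secreted type that oxidises phenolic compounds in the cell wall and can also produce or use hydrogen peroxide there. Its levels were 10.25, 10.22 and 9.87 in IR29 salt plants, against 11.40, 11.50 and 11.58 in FL478 salt plants. They were 9.90 and 10.47 in IR29 control plants, against 10.91, 12.48 and 11.29 in FL478 control plants. All IR29 arrays of PRX112 lay below all FL478 arrays. The difference was -1.38 ± 0.31 under salt, a ratio of 0.385 (limma adjusted p = 0.0495), and -1.37 ± 0.35 without salt (adjusted p = 0.129). Without FL478 control replicate 2, its highest array, the difference of PRX112 without salt was -0.91.

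The PRX112 call sat at the threshold and was kept in 8 of 21 alternatives, with differences of -1.44 to -0.81 and adjusted p of 0.000916 to 0.185. It was lost without any 1 of the 8 arrays of IR29 salt, IR29 control or FL478 salt (adjusted p = 0.0602 to 0.185) and without FL478 control replicate 3 (adjusted p = 0.0629). A second probe set of PRX112 did not show the difference: it had 8.76, 9.26 and 8.99 in IR29 salt plants, against 9.35, 9.21 and 9.18 in FL478 salt plants, and 9.58 and 9.43 in IR29 control plants, against 9.42, 9.45 and 9.36 in FL478 control plants. Its line differences were -0.25 under salt and 0.10 without salt. A difference in transcript level and a difference in sequence under the probes of 1 probe set cannot be told apart here, for PRX112 or for OsCXXS1, which has 1 probe set.

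The genes next to these 2 were looked up in the order of the assembly ASM3414082v1, with a window of 10 measured genes on each side that was chosen after the values were seen. Of the 20 neighbours of OsCXXS1, 1 (LOC4337104) was called between the lines, lower in IR29, in both conditions. Of the 20 neighbours of PRX112, 1 (LOC4344276) was called, lower in IR29, under salt and 0 without salt. An unadjusted limma p under 0.05 was found for 3 neighbours of OsCXXS1 under salt and 4 without salt. For PRX112 it was found for 3 under salt and 2 without salt. The shares of all probe sets were 11.4% under salt and 8.97% without salt. Over all genes with 1 probe set each, 2.54% were called under salt and 1.09% without salt.

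The panels of 7 redox genes show the array values behind these results.

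**Figure D3:**
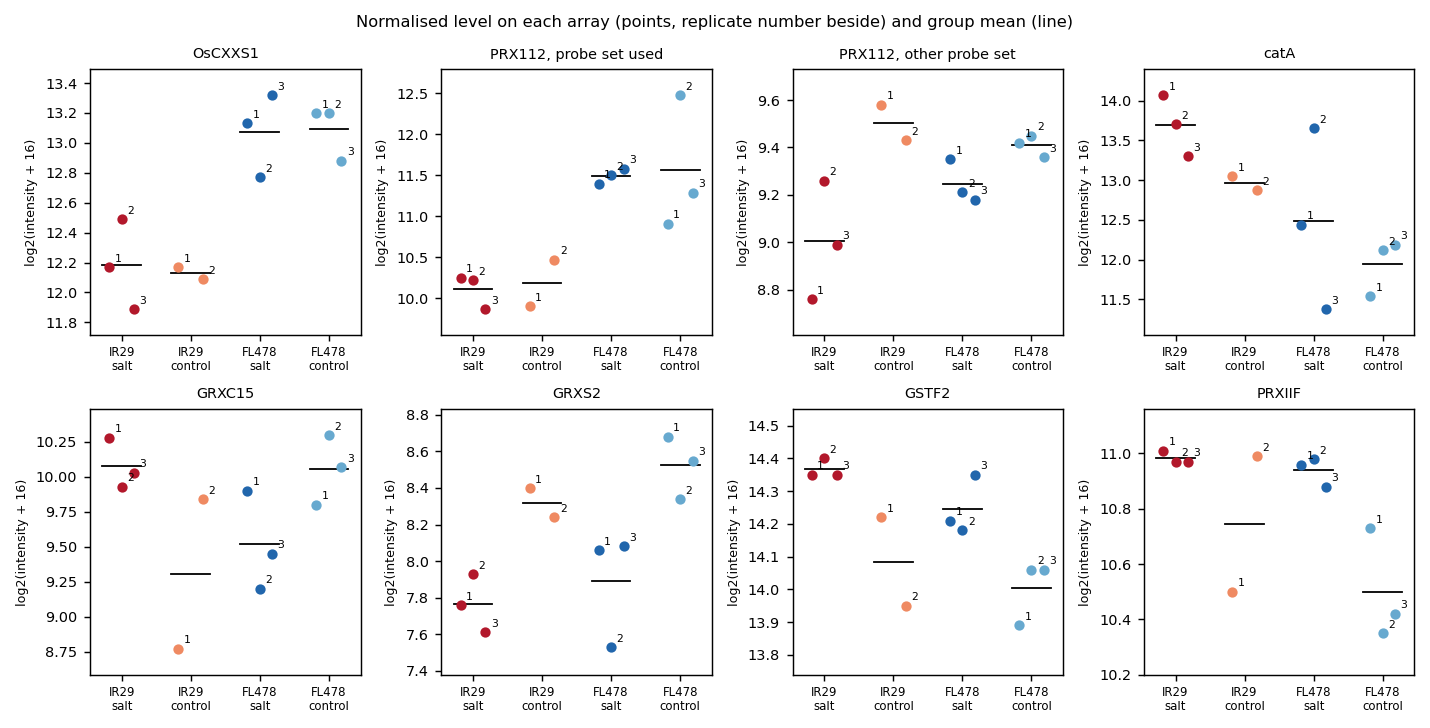
Normalised log2 level of 7 redox genes on each array (points, with replicate numbers) and the mean of each group (line), with both probe sets of PRX112 and groups from left to right IR29 salt, IR29 control, FL478 salt and FL478 control. OsCXXS1 and the probe set used for PRX112 lie lower in every IR29 array than in every FL478 array, the other PRX112 probe set overlaps, and catA lies at 13.65 in FL478 salt replicate 2.

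catA (LOC4328073, chromosome 2) lay higher in the IR29 arrays than in most FL478 arrays without passing the threshold. Against the array values given above, the line difference was 1.20 ± 0.43 under salt (adjusted p = 0.262) and 1.01 ± 0.48 without salt (adjusted p = 0.574). The groups were apart without salt and overlapped under salt, where only FL478 salt replicate 2 reached the IR29 levels. Single arrays moved the difference of catA under salt both ways: it was 1.79 without FL478 salt replicate 2 (adjusted p = 0.0111), which passed the threshold, and 0.65 without FL478 salt replicate 3 (adjusted p = 0.604). All 3 probe sets of catA lay the same way, with 1.20, 1.12 and 1.55 under salt and 1.01, 0.97 and 0.82 without salt.

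PRX74 (LOC4339222, chromosome 5), the other class III peroxidase, had levels of 11.12, 11.04 and 11.38 in IR29 salt plants, against 10.31, 11.06 and 10.24 in FL478 salt plants, and 11.33 and 10.87 in IR29 control plants, against 10.61, 10.43 and 10.61 in FL478 control plants. As with catA, only FL478 salt replicate 2 overlapped the IR29 salt arrays. The difference of PRX74 was 0.64 ± 0.20 under salt (adjusted p = 0.193) and 0.55 ± 0.23 without salt (adjusted p = 0.487), and 0.91 under salt without FL478 salt replicate 2 (adjusted p = 0.0127). With other single arrays left out, the difference of PRX74 under salt was as low as 0.50, and without salt it was 0.32 without IR29 control replicate 1 and 0.78 without IR29 control replicate 2. Leaving out FL478 salt replicate 2 thus gave 3 redox genes called under salt, OsCXXS1, PRX74 and catA, but not PRX112. With any 1 array left out, 543 to 1279 of all probe sets were called between the lines under salt, against 992 with all arrays.

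Among the other thioredoxins, OsTrxh4-1, of the h type found mainly in the cytosol, had levels of 8.30, 8.13 and 8.18 in IR29 salt plants, against 8.64, 8.68 and 8.68 in FL478 salt plants, and 7.80 and 8.08 in IR29 control plants, against 8.82, 9.02 and 8.26 in FL478 control plants. The lines did not overlap in either condition, and the differences were -0.46 ± 0.20 and -0.76 ± 0.23 (adjusted p = 0.404 and 0.224). TRXH, also of the h type, had differences of -0.32 ± 0.15 under salt and -0.38 ± 0.16 without salt. Of the 14 thioredoxins, 9 lay below 0 under salt, where median centring turned the median of -0.14 to 0.08, and 10 without salt. OsTrxm5, of the plastid m type, lay above 0 at 0.59 ± 0.21 under salt (adjusted p = 0.269).

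AOX1a had the array values given above, with every IR29 array above every FL478 array of the same condition. Its line differences were 0.66 ± 0.23 under salt and 0.49 ± 0.26 without salt (adjusted p = 0.261 and 0.646). PRXIIE-2 had 11.91, 11.98 and 11.98 in IR29 salt plants, against 11.14, 11.61 and 11.55 in FL478 salt plants, without overlap, a difference of 0.52 ± 0.19 (adjusted p = 0.264), and 0.06 ± 0.21 without salt. GRXC7 had 9.20, 9.18 and 8.82 in IR29 salt plants, against 9.36, 9.84 and 9.59 in FL478 salt plants, also without overlap and in the other direction, a difference of -0.53 ± 0.18 (adjusted p = 0.255).

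Of the glutathione S-transferases, 4 of 6 lay below 0 between the lines under salt and 5 of 6 without salt, and none was called. GSTZ5 had 10.16, 9.40 and 10.02 in IR29 salt plants, against 11.12, 10.43 and 10.85 in FL478 salt plants, without overlap, a difference of -0.94 ± 0.38 (adjusted p = 0.353). GSTU6, of the tau class, had 8.88 and 9.31 in IR29 control plants, against 9.50, 10.67 and 9.77 in FL478 control plants, a difference of -0.89 ± 0.35 (adjusted p = 0.456), which was -0.54 without FL478 control replicate 2. Averaging its probe sets gave -0.26, but the second of them lay near the pseudocount, at 4.12 to 5.56 on all arrays. The superoxide dismutases lay within -0.10 to 0.28 between the lines under salt and within -0.15 to 0.12 without salt.

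Every IR29 array lay above every FL478 array for 4 redox genes under salt, against 8.65% of all probe sets, and for 4 without salt, against 11.5%. Every IR29 array lay below for 11 under salt, against 9.46% of all probe sets, and for 7 without salt, against 11.1%. Of the 55, 16 lay above 0 in both conditions and 26 below 0 in both, with signs that depend on the scaling as given above. The plot of the line differences gives them for each gene.

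**Figure D4:**
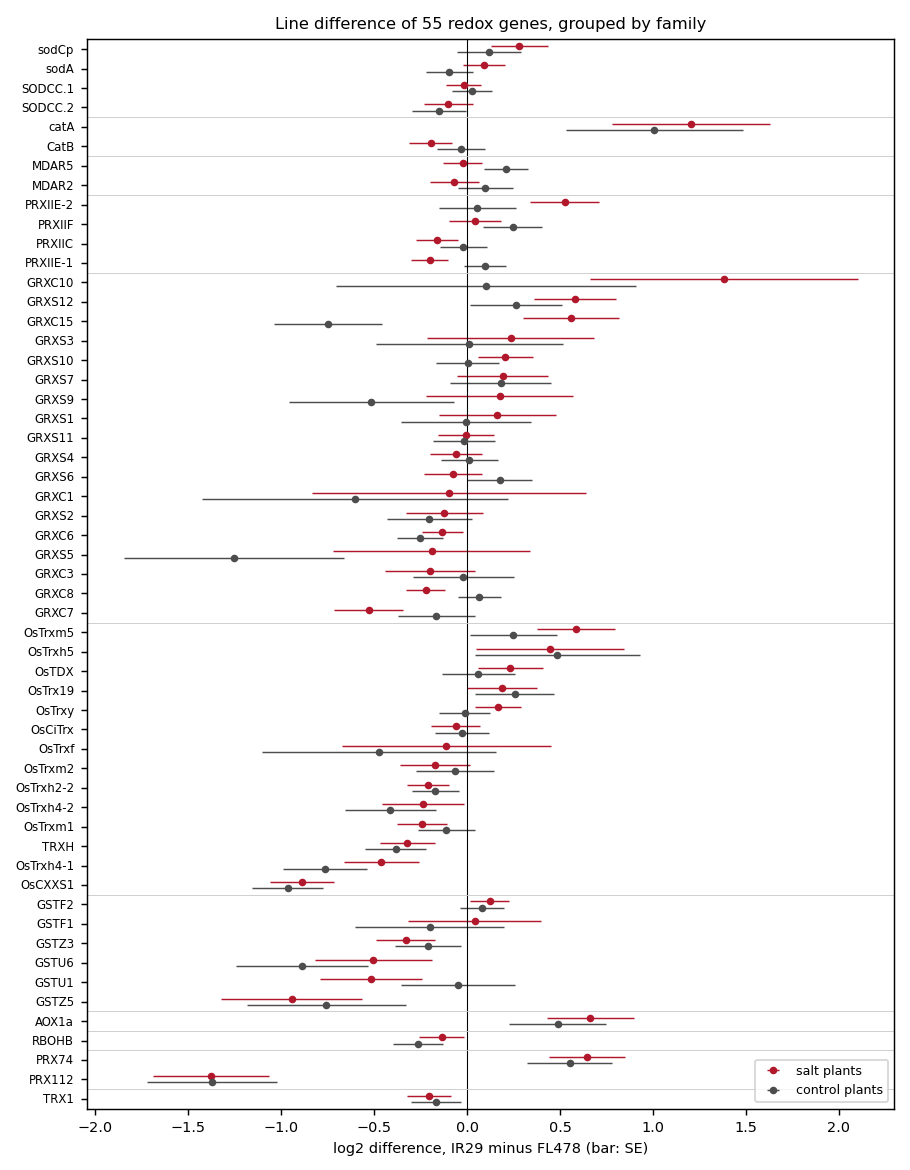
Line difference of the 55 redox genes, as log2 of IR29 minus FL478 in salt plants (red, upper) and in control plants (grey, lower), with bars of 1 SE; genes run down the page by family. OsCXXS1 and PRX112 lie below 0 in both conditions, and catA, PRX74 and AOX1a lie above 0 in both.

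The wider pathway was described by 29 genes on a list of ascorbate peroxidases, ascorbate and glutathione synthesis, methionine sulfoxide reductases, reductants of thioredoxin and metallothioneins. None of the 29 was called for salt by limma, where 0.00873% of all probe sets were called in FL478 and 0.00524% in IR29. None was called for the difference between the responses, against 0% of all probe sets, or between the lines without salt, against 0.814%. Under salt 1 was called between the lines, against 1.73%. An unadjusted p under 0.05 was found for 2 with salt in FL478 and 5 in IR29. It was found for 1 for the difference between the responses, 1 between the lines without salt and 6 under salt. As shares of the 29 these were 6.9% for salt in FL478, against 5.41% of all probe sets, and 17.2% in IR29, against 7.37%. They were 3.45% for the difference between the responses, against 5.34%, 3.45% between the lines without salt, against 8.97%, and 20.7% under salt, against 11.4%. The gene called under salt was APX5, an ascorbate peroxidase, at 4.32, 5.18 and 5.47 in IR29 salt plants, against 10.10, 10.12 and 9.61 in FL478 salt plants (-4.96 ± 0.73, adjusted p = 0.00319). In IR29 control plants APX5 had 9.27 in replicate 1 and 5.28 in replicate 2, against 9.77, 10.40 and 9.98 in FL478 control plants, so replicate 1 stood with FL478. For OsCXXS1 and PRX112, IR29 control replicate 1 lay at 12.17 and 9.90, within the range of the other IR29 arrays. OsCXXS1 was called without salt with this array in the comparison, so its value there is not a separate check. Why replicate 1 stood with FL478 for APX5 was not tested. GME-2, of ascorbate synthesis, had the only unadjusted p under 0.05 for the difference between the responses, 0.66 ± 0.21.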

How the data were processed

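The authors deposited linear intensities, 1 for each probe set on each array, made in GCOS 1.2, per the submitters' processing notes. The algorithm is not given in the sources used here. Trimmed means were 500.1 on all arrays, which points to scaling by array, and the number of arrays limits the precision. The members and lists were chosen with earlier results of these data known.

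The 123 control probe sets were left out of the fit. The other 57258 were transformed to log2 of the intensity plus 16. Array medians differed by up to 0.47, so arrays were quantile normalised. They were fitted in limma 3.58.1 (R 4.3.3) as 4 group means over 11 arrays (7 residual degrees of freedom, variance trend), with two-sided contrasts. Each gene was represented by the probe set with the highest mean. 15 of the 55 genes had several. On simulated data with independent noise, 100 bright probe sets were changed by each amount, and 166 and 159 probe sets were called. There 71% and 90% of changes of 1 and 2 (log2) were recovered for salt in FL478, and 64% and 90% for the lines under salt. The measured arrays gave 5 calls for salt in FL478, where the adjustment was stricter, so these shares do not carry over to that comparison or to dim genes.

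Named are the members called in a contrast, up to 5 in each direction per contrast with an unadjusted p under 0.05 and no overlap, and in each family the brightest member and those with the highest and lowest salt response. GRXC10, GRXS5, GRXS7, OsTrxm2, OsTrxm5 and OsTrxh5 fall outside this rule and are named after their values were seen. GRXC3, GRXS10, GSTU1, OsTrxh4-2, sodA and GSTZ3 also fall outside it and are named only for their probe sets. Gene names come from the annotation of the array and the RefSeq table of the assembly ASM3414082v1, in which all 17905 genes were found and which is not the build of the array, so no coordinates are given.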

Additional observations from a re-analysis of the deposited data

How the results depend on the processing

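For all probe sets, 5 were called for salt in FL478, and 1 with median centring, 8 with a pseudocount of 1, 2 with a pseudocount of 64, 8 without dim probe sets, 1 without the variance trend, 2 with array weights, 0 with only the arrays compared, and 0 to 4 with 1 array left out. For salt in IR29, 3 were called, and 29 with median centring, 6 with a pseudocount of 64, 6 without dim probe sets, 5 with array weights, 0 with only the arrays compared, and 0 to 65 with 1 array left out. The difference between the responses gave 0 to 21 with 1 array left out. Between the lines without salt, 466 were called, 150 with only the arrays compared and 267 to 525 with 1 array left out. Under salt, 992 were called, 1660 with array weights and 543 to 1279 with 1 array left out. Median centring raised the share of the calls under salt that lay higher in IR29 to 64.6%, against 47.6%. The median of all probe sets between the lines under salt then lay at 0.13.

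Of the redox genes, 0 were called for salt in either line or for the difference between the responses under every alternative run (0 to 0 with 1 array left out). Between the lines without salt, 1 was called, and 0 with median centring, without the variance trend, with array weights or with only the arrays compared, and 0 to 1 with 1 array left out. Under salt, 2 were called, and 1 with the values as deposited, 0 with median centring, 1 with a pseudocount of 64, 0 without the variance trend, 1 with only the arrays compared, and 0 to 3 with 1 array left out. The causes were not tested.

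Over all probe sets, arrays with the same replicate number in salt and control plants did not deviate together. The FL478 correlations were -0.02, -0.02 and 0.03 and those of IR29 -0.05 and 0.06, so the numbers were not taken as pairs. The 2 IR29 control arrays deviate as mirror images, so the IR29 correlations say little. Single redox genes, picked after their values were seen, did follow the number. Replicate 2 was the lowest array of each group for OsTrxf, GSTF1, GRXS7 and OsTrxm2, and the highest for GRXC1 and OsTDX. How many of all probe sets did so was not counted. For GRXC1 in FL478 the replicate block left the difference at -1.69, with an SE of 0.37 against 0.74 (limma adjusted p = 0.552). With the replicate block, 7 probe sets were called for salt in FL478, 14 for salt in IR29, 0 for the difference, and 381 and 939 between the lines without and with salt, and 0 and 2 redox genes between the lines without and with salt.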
